A study of Homo sapiens with 6 samples.

Results

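The D-type cyclins, the kinases they bind and the inhibitors of those kinases were examined in A549 cells after METTL3 knockdown. The 10 genes were taken by symbol out of 57781 gene rows: the cyclins CCND1, CCND2 and CCND3, the kinases CDK4 and CDK6, the CIP/KIP inhibitors CDKN1A, CDKN1B and CDKN1C, and the INK4 inhibitors CDKN2A and CDKN2B. All 10 symbols had a row, and 7 of them had enough reads for the test across all genes. CCND2, CDKN2A and CDKN2B did not.

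The data were gene counts from total RNA sequencing of 6 libraries of A549, an established human lung adenocarcinoma line. In 3 libraries the cells carried the control vector and are labelled WT. In 3 libraries METTL3 was knocked down by a hairpin expressed from the pSupper-neo plasmid. METTL3 is the catalytic part of the nuclear complex that writes N6-methyladenosine (m6A) on RNA. Whether the cells were a pool or grown from 1 clone is not given in the sources used here. No treatment or time point was labelled in either group. The hairpin libraries are numbered sh1 to sh3 in the counts and rep1 to rep3 in the sample titles. The paper states in general that its experiments were done independently at least 3 times. The sources used here do not otherwise say whether the numbers mark hairpins, cultures or repeat preparations. The p-values therefore measure the spread between these libraries, which may be technical. The libraries held 14931426 to 19108928 counts each. METTL3 itself was read 887, 846 and 808 times with the vector and 364, 399 and 307 times after knockdown. In CPM, a count set against the total of its library scaled by the trimmed mean of M-values (TMM), it fell from 49.9 ± 0.676 to 19.4 ± 0.525 (SD, n = 3 each), a log2 fold change of -1.36 (SE 0.0673, adjusted p = 4.57e-16).

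A cell in G1 commits to copying its DNA when D-type cyclins, made in answer to growth factors, activate CDK4 and CDK6. These kinases begin to phosphorylate the retinoblastoma protein, which then lets go of the E2F factors that switch on genes for DNA synthesis. The INK4 proteins block CDK4 and CDK6 by binding the kinases themselves, whereas the CIP/KIP proteins bind the assembled cyclin and kinase and act most strongly on CDK2. CDKN1A, which encodes p21, is induced by many stress and differentiation signals, and A549 is a line with a deletion of the CDKN2A locus.

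Since METTL3 methylates adenosine preferentially within a GGAC core, the members' transcripts were searched for GGACT, a common form of that core. Each tested member held at least 1 such word in its canonical transcript. For each, 25 bases around 1 word, with GGACT in capitals, are printed in the sense of the transcript. They are shown because METTL3, the gene knocked down, is the writer that methylates within this core. The word shown is the nearest to the stop codon among those whose 25 bases lie within a single exon. Methylation was not measured in these libraries, so a word is a description of sequence and not a modified site.
CCND1, 3′UTR, exon 5 of 5, GRCh37 chr11:69467165-69467189, plus strand: tttgcaagcaGGACTttgaggcaag
CCND3, 5′UTR, exon 1 of 5, chr6:41909419-41909443, minus strand: gcctgccttgGGACTcgcgagcccg
CDK4, 3′UTR, exon 8 of 8, chr12:58141929-58141953, minus strand: ttggaagaagGGACTttcctgcaaa
CDK6, coding, exon 4 of 8, chr7:92355064-92355088, minus strand: tccgaggtctGGACTttcttcattc
CDKN1A, 3′UTR, exon 3 of 3, chr6:36654465-36654489, plus strand: ccagctcaatGGACTggaaggggaa
CDKN1B, coding, exon 1 of 3, chr12:12870892-12870916, plus strand: agttaacccgGGACTtggagaagca
CDKN1C, 3′UTR, exon 4 of 4, chr11:2904647-2904671, minus strand: ttttcatcgcGGACTctggggaagg
In CCND1, CDK4, CDKN1A and CDKN1C the word shown lay after the stop codon, by 1129, 369, 902 and 494 bases. In CCND3, CDK6 and CDKN1B it lay before the stop codon. CCND1, CCND3 and CDK6 each held a coding word nearer to the stop codon whose surrounding bases cross an exon border. Per kilobase of canonical transcript, the members that rose held 0.945 such words (CDKN1A) and 0.564 (CDKN1C), and those that fell held 1.481 (CCND3), 0.708 (CCND1), 0.536 (CDK4) and 0.415 (CDKN1B). The median of the 7 tested members was 0.564 per kilobase, beside a median of 0.922 over 12477 tested protein-coding genes, of which 91.8% held at least 1.

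After METTL3 knockdown, the mRNAs of 2 CDK inhibitors rose and those of 4 other members fell. CDKN1A and CDKN1C were close to double their vector level, CDKN1B fell to 73.9% of it, and CCND1, CCND3 and CDK4 fell by less. CDK6 did not pass the test. Of the 7 tested members, 6 were called at an adjusted p under 0.05 by edgeR's quasi-likelihood test, whereas 66.6% of all 15125 tested genes were called. The 2 higher members stood beside 33.7% of tested genes called higher, and the 4 lower members beside 32.9% called lower. In 6 of the 7 members all libraries of one group lay above all of the other, which was so for 69.4% of all tested genes. With so many genes called, a call alone does not set a member apart. In RNA from a whole culture, a change in every cell and a change in the share of cells at one stage of the cycle cannot be told apart.

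**Figure D1:**
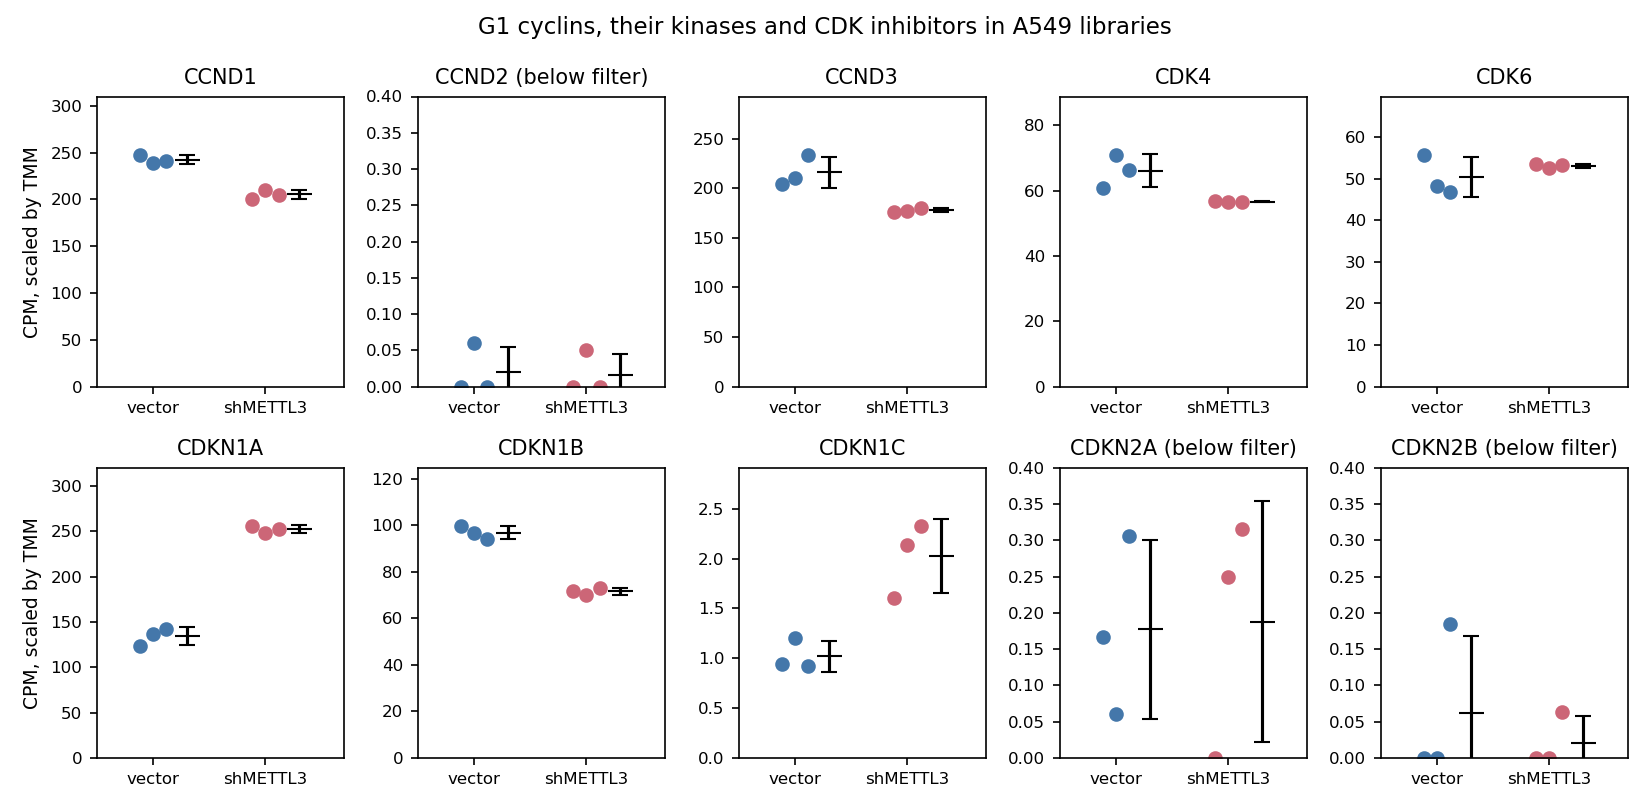
Level of each of the 10 members in TMM-scaled CPM (y axes start at 0 and differ between panels) in the 3 vector and 3 shMETTL3 libraries. Points are libraries and the horizontal marks with bars are means and SD. CDKN1A and CDKN1C sit higher in every shMETTL3 library, CCND1, CCND3, CDK4 and CDKN1B sit lower, CDK6 overlaps, and CCND2, CDKN2A and CDKN2B stay near 0.

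Among the inhibitors, CDKN1A (chr6:36644237-36655114, plus strand) encodes p21, which inhibits CDK2 complexes and binds the replication clamp PCNA. It stood at 123, 137 and 142 CPM with the vector and at 256, 248 and 253 CPM with the hairpin. The lowest shMETTL3 library was well above the highest vector library, and the shMETTL3 libraries lay closer to each other than the vector libraries did. The mean rose from 134 ± 9.99 to 252 ± 3.69 CPM (SD, n = 3 each), 1.88-fold, with a log2 fold change of 0.91 (SE 0.0546, adjusted p = 3.07e-14). Although this was the member change with the smallest adjusted p, 1713 of the 5090 genes called higher rose further. The log2 fold change stayed between 0.85 and 1.09 in all 15 alternative fits and was called in each. The long noncoding RNA gene DINOL shares 146 bases of exon with CDKN1A, 4.9% of its exons, and was close to 0 in these libraries.

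CDKN1B (chr12:12838432-12875303, plus strand) encodes p27, the CIP/KIP protein that holds resting cells out of the cycle and whose amount is otherwise set largely by protein breakdown. It moved the other way. Its level was 99.7, 96.5 and 94.0 CPM with the vector and 71.5, 70.1 and 72.9 CPM with the hairpin. Every shMETTL3 library was lower than every vector library, and the spread within either group was small. The mean fell from 96.7 ± 2.83 to 71.5 ± 1.43 CPM, to 73.9% of the vector level, with a log2 fold change of -0.44 (SE 0.0531, adjusted p = 4.52e-08). It was called in all 15 alternative fits, between -0.46 and -0.26. Of the 4977 genes called lower, 3224 fell further.

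CDKN1C (chr11:2904443-2907005, minus strand) encodes p57, the imprinted member of the family. Its counts were low, at 17, 20 and 15 reads with the vector and 31, 43 and 37 after knockdown. In CPM the vector libraries stood at 0.947, 1.2 and 0.919, and the shMETTL3 libraries at 1.61, 2.14 and 2.33. The groups did not overlap, but the shMETTL3 libraries spread widely around their mean. The log2 fold change was 0.98 with an SE of 0.274, about 5 times that of CDKN1A (adjusted p = 0.00264). It was called in all 15 alternative fits, with adjusted p-values from 0.00063 to 0.0496. CDKN1C thus came close to CDKN1A in fold change from a far lower level, 0.412 against 44.7 CPM per kilobase of annotated exon with the vector.

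The INK4 pair at chromosome 9 was at the edge of detection. CDKN2A (chr9:21967751-21995300, minus strand), which encodes p16 and ARF, was read 3, 1 and 5 times with the vector and 0, 5 and 5 times after knockdown. CDKN2B (chr9:22002902-22009304, minus strand), which encodes p15, was read 0, 0 and 3 times and 0, 0 and 1 times. A count of 3 corresponds to between 0.150 and 0.189 CPM in these libraries, and no difference was detectable at this depth. MTAP, the gene beside them that is often lost together with CDKN2A, was read 0, 1 and 4 times with the vector and 1, 8 and 6 times after knockdown (named after its values were seen). CDKN2B-AS1, the antisense RNA of the locus whose exons overlap CDKN2A, was read 0, 0 and 1 times and 0, 0 and 0 times. The nearest tested protein-coding genes on either side of CDKN2A were IFNE, at a log2 fold change of 0.16 (adjusted p = 0.586), and DMRTA1, which lies 451.5 kb away and rose by 0.90 (adjusted p = 0.0023).

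Of the 3 D-type cyclins, CCND1 and CCND3 were both well expressed and both fell. CCND1 (chr11:69455924-69469242, plus strand), the main growth factor-induced cyclin of epithelial cells, stood at 248, 239 and 241 CPM with the vector and at 201, 210 and 205 CPM in the shMETTL3 libraries. The shMETTL3 libraries were all lower, at 84.5% of the vector mean (243 ± 4.66 against 205 ± 4.51 CPM), with a log2 fold change of -0.24 (SE 0.0488, adjusted p = 9e-05). CCND3 (chr6:41902672-42018095, minus strand), best known from lymphocytes but widely expressed, stood at 204, 210 and 234 CPM with the vector and at 176, 177 and 180 CPM in the shMETTL3 libraries. Its mean fell from 216 ± 15.9 to 178 ± 1.78 CPM, with a log2 fold change of -0.28 (SE 0.0538, adjusted p = 4.55e-05). CCND2 (chr12:4378937-4414519, plus strand) was read once in 1 library of each group and not at all in the other 4, so no difference was detectable.

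CDK4 (chr12:58141510-58149796, minus strand), the kinase partner of the D-type cyclins, stood at 60.9, 71.1 and 66.4 CPM with the vector and at 56.8, 56.5 and 56.7 CPM in the shMETTL3 libraries. All shMETTL3 libraries were lower, and they were nearly equal to each other. The log2 fold change was -0.22 (SE 0.0604, adjusted p = 0.00204). CDK4 and TSPAN31 share 1369 bases of exon on opposite strands, 44.2% of the CDK4 exons. No source used here says if counting was by strand, so reads there may have been mixed or left uncounted. TSPAN31 itself was at 0.01 on the log2 scale (adjusted p = 0.941). CDK6 (chr7:92234235-92465887, minus strand), the paralogous kinase, stood at 55.8, 48.2 and 46.9 CPM and at 53.5, 52.6 and 53.3 CPM. The first vector library was above all shMETTL3 libraries and the other vector libraries were below them. The log2 fold change was 0.08 (SE 0.0649, adjusted p = 0.289), and it was 0.16 without the first vector library (adjusted p = 0.0395), 0.04 without the second (adjusted p = 0.633) and 0.03 without the third (adjusted p = 0.738).

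The small decreases of CCND1, CCND3 and CDK4 depended on how the libraries were scaled. The TMM factors were 0.92 to 0.953 for the vector and 1.051 to 1.072 for shMETTL3. When the libraries were scaled by their total count alone, the median over all 15125 genes, on the log2 scale, moved from 0.002 to 0.176, and 65.8% instead of 50.6% of called genes were higher. Under that scaling CCND1 was at -0.07 (adjusted p = 0.223), CCND3 at -0.11 (adjusted p = 0.0715) and CDK4 at -0.05 (adjusted p = 0.501), none of them called, while CDK6 was called higher at 0.25 (adjusted p = 0.00243). The members called were then 4, of which 3 were higher and 1 was lower. Of all tested genes 10259 were then called, 6750 higher and 3509 lower. CDKN1A, CDKN1B and CDKN1C kept their direction and their call.

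**Figure D2:**
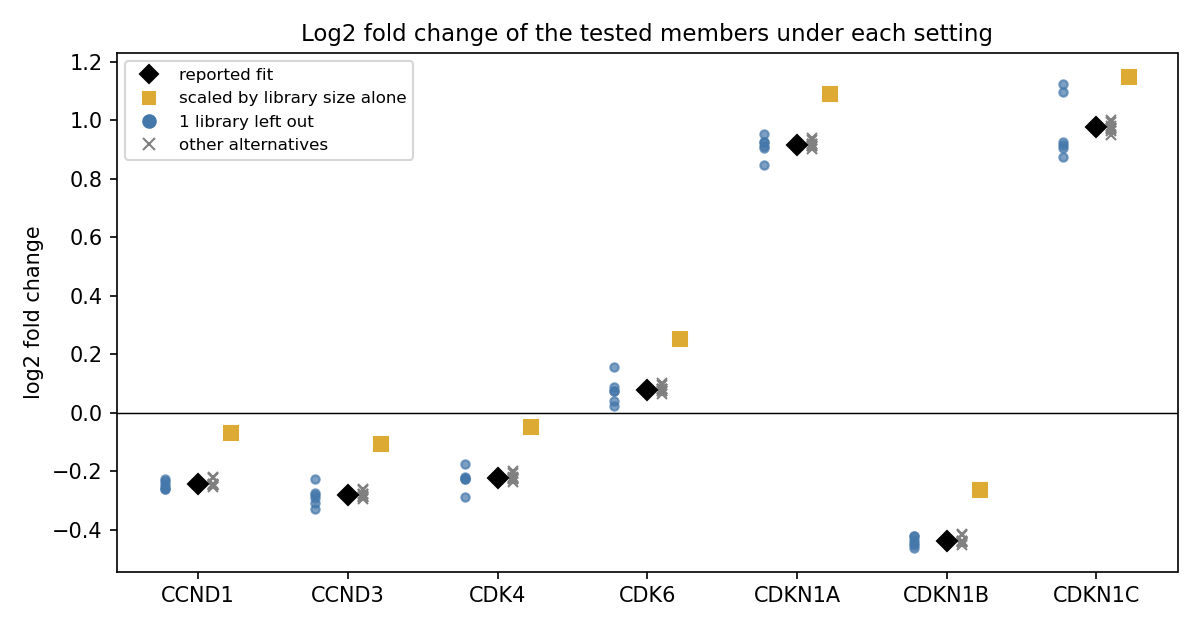
Log2 fold change (shMETTL3 against vector, y axis) of the 7 tested members (x axis) under the reported fit and the 15 alternative fits, with 0 drawn as a line. CDKN1A and CDKN1C stay above 0.8 and CDKN1B stays below -0.2, whereas the fit scaled by total counts alone brings CCND1, CCND3 and CDK4 close to 0.

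Levels of different genes can be compared only per length, and the order then depended on the length used. Per kilobase of all annotated exons, CCND1 led in the vector libraries at 50.9 ± 0.98 CPM per kilobase, followed by CDKN1A at 44.7 ± 3.34, CCND3 at 37.5 ± 2.76, CDK4 at 21.4 ± 1.64, CDKN1B at 10.5 ± 0.306, CDK6 at 4.11 ± 0.392 and CDKN1C at 0.412 ± 0.0617. No neighbours in that order of the 7 tested members overlapped in their libraries. In the shMETTL3 libraries CDKN1A led at 84.2 ± 1.23, ahead of CCND1 at 43.1 ± 0.948, and the order was otherwise the same. Per kilobase of the canonical transcript, CCND3 led in the vector libraries at 107 ± 7.84, while CDKN1A at 63.2 ± 4.72 and CCND1 at 57.2 ± 1.10 overlapped. By that length too, CDKN1A was the highest member in the shMETTL3 libraries, at 119 ± 1.74 against 87.7 ± 0.878 for CCND3.

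These levels were used to compare the balance of inhibitor and cyclin mRNA within each library. The summed level of CDKN1A, CDKN1B and CDKN1C over that of the 3 D-type cyclins was 0.596, 0.653 and 0.634 with the vector and 1.29, 1.22 and 1.26 with the hairpin. Inhibitor mRNA was thus below cyclin mRNA in each vector library and above it in each shMETTL3 library. The means were 0.628 ± 0.029 and 1.25 ± 0.0343, a log2 difference of 1.0. The exact two-sided permutation test gave p = 0.1, the smallest p that 3 against 3 libraries allow. With the canonical transcript lengths the means were 0.635 and 1.10, so the ratio passed 1 by both lengths. From counts without any length they were 0.505 and 0.851, so the ratio rose but stayed below 1. Among the inhibitors, the ratio of CDKN1A to CDKN1B was 4.28 ± 0.439 with the vector and 10.9 ± 0.179 after knockdown, and the CDKN1A share of CIP/KIP mRNA was 80.4% and 90.8%. With canonical lengths the ratio was 1.58 and 4.02 and the share 60.8% and 79.5%. These last quantities were chosen after the values of the genes had been seen.

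The make-up of the cyclins and of the kinases was compared in the same way. CCND1 made up 57.6% ± 2.01 of D-type cyclin mRNA with the vector and 58.3% ± 0.506 after knockdown, a difference within the spread (exact permutation p = 0.7). With canonical lengths its share was 35.0% and 35.6%, so CCND3 then made up the larger part, and which cyclin led depended on the length. Per kilobase of all annotated exons, the CDK4 to CDK6 ratio was 4.32, 5.84 and 5.61 with the vector and 4.19, 4.25 and 4.21 after knockdown. The shMETTL3 libraries were all lower, although the first vector library lay just above them (log2 difference -0.30, exact permutation p = 0.1). The level of the ratio also moved with the length, to means of 8.31 and 6.67 with canonical transcripts and 1.33 and 1.07 without length.

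**Figure D3:**
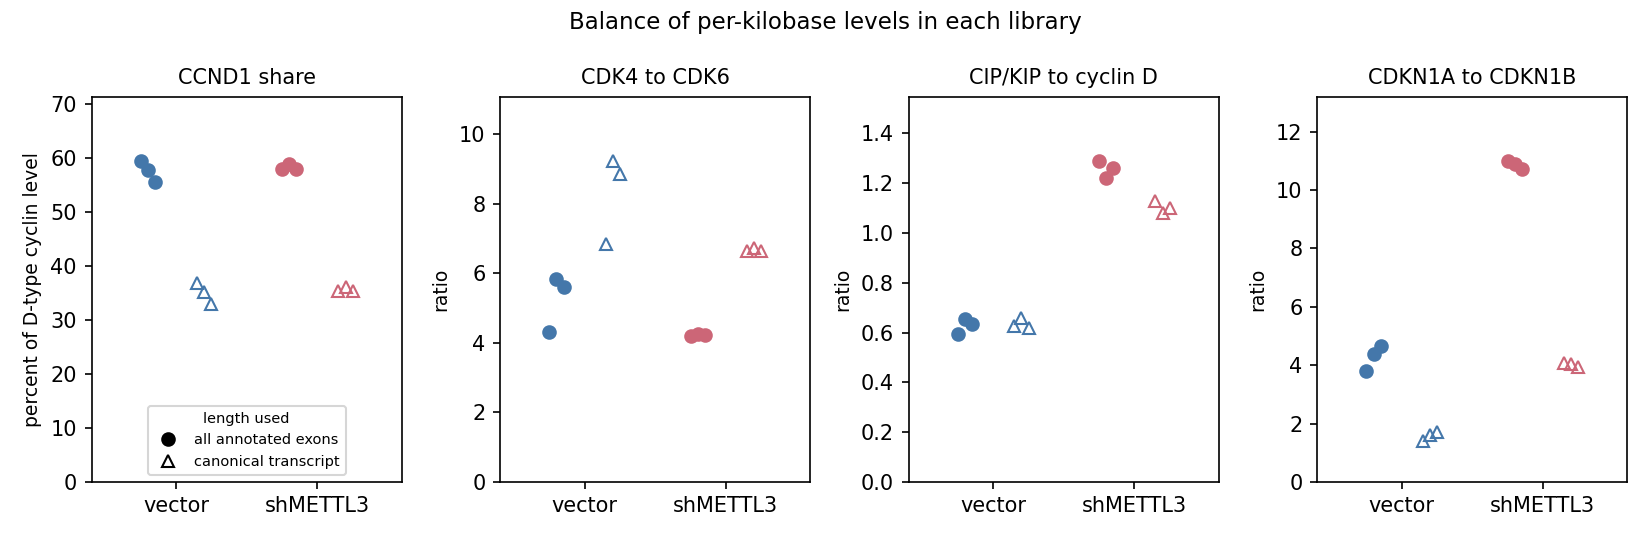
Ratios and shares of per-kilobase levels in each of the 3 vector and 3 shMETTL3 libraries, with filled circles for the length of all annotated exons and open triangles for the canonical transcript. The CIP/KIP to cyclin D ratio passes from below 1 to above 1 by both lengths, whereas the CCND1 share of D-type cyclins overlaps between groups.

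Around the members, a list of 27 genes of the wider G1/S circuit was examined, from cyclin E and CDK2 to pocket proteins, E2F and DP factors, other INK4 inhibitors, the CDK-activating kinase and ubiquitin ligase parts. All 27 were tested and 22 were called, 7 higher and 15 lower, beside 66.6% called, 33.7% higher and 32.9% lower among all tested genes. Their median log2 fold change was -0.23 beside 0.002 over all tested genes. Scaled by total counts alone, 17 were called, 9 higher and 8 lower. Under that scaling 10259 of 15125 tested genes were called, 6750 higher and 3509 lower. CDK2, the kinase that completes the phosphorylation of the retinoblastoma protein and the chief target of p21 and p27, fell from 33.1 ± 2.09 to 14.3 ± 1.39 CPM (log2 fold change -1.22, SE 0.0827, adjusted p = 4.87e-13). Among its cyclins, CCNE1 fell by 0.23 on the log2 scale (adjusted p = 0.017), and CCNE2 was at 2.53 ± 0.713 and 1.95 ± 0.198 CPM (adjusted p = 0.138). The CDK2 decrease was therefore larger than that of any member.

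The INK4 genes outside the chromosome 9 locus both fell. CDKN2C, which encodes p18, went from 46.8 ± 1.24 to 20.4 ± 1.08 CPM (log2 fold change -1.20, SE 0.0692, adjusted p = 1.36e-14). CDKN2D, which encodes p19, went from 3.50 ± 0.278 to 2.48 ± 0.454 CPM (adjusted p = 0.0205). Inhibitor genes thus moved in both directions, with CDKN1A and CDKN1C higher and CDKN1B, CDKN2C and CDKN2D lower. Of the pocket proteins, which hold E2F factors in check, RB1 rose from 32.0 ± 2.38 to 40.9 ± 0.611 CPM (log2 fold change 0.35, adjusted p = 5.28e-05). RBL1 rose by 0.62 on the log2 scale (adjusted p = 6.51e-06). RBL2 was at -0.04 (adjusted p = 0.578). Of the 10 E2F and DP factors, 4 were called higher and 6 lower, beside 33.7% higher and 32.9% lower among all tested genes. E2F1, an activator of replication genes, fell from 18.4 ± 0.48 to 13.7 ± 0.307 CPM, and E2F2, a related activator, fell by 1.20 on the log2 scale (adjusted p = 1.55e-08). E2F3, the remaining activator of that group, rose by 0.22 (adjusted p = 0.00801, named after its value was seen). SKP2, the ligase subunit that marks p27 for breakdown, fell from 20.3 ± 1.35 to 16.0 ± 1.21 CPM.

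**Figure D4:**
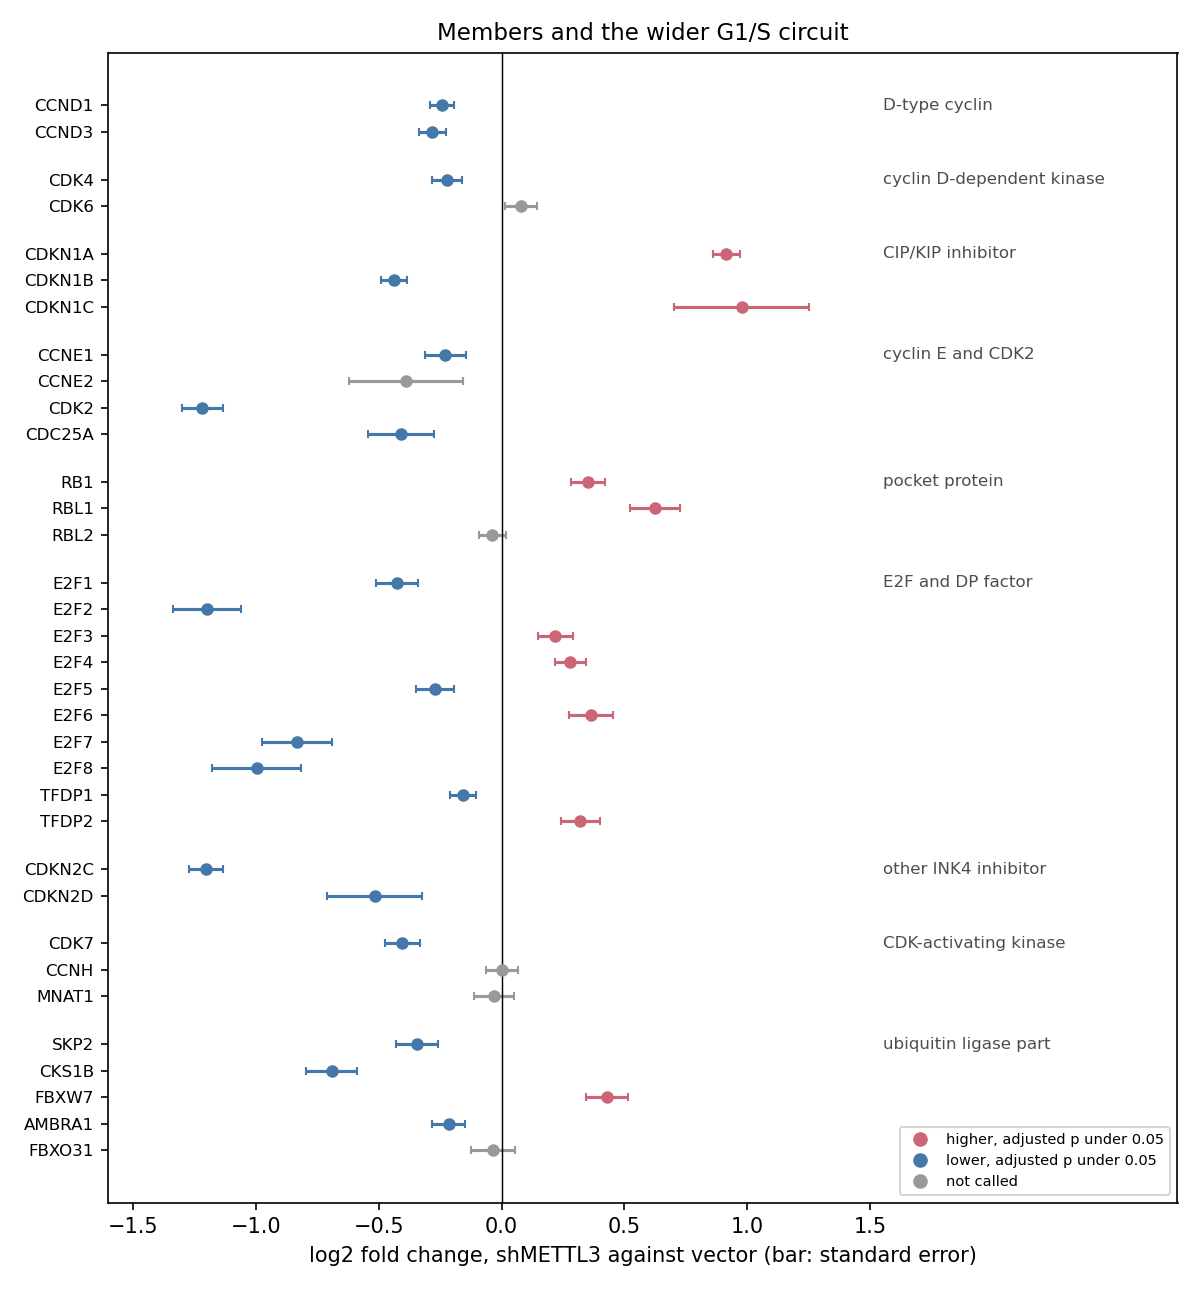
Log2 fold change (shMETTL3 against vector, x axis) with its standard error for the tested members and the 27 genes of the wider G1/S circuit. CDKN1A and CDKN1C reach the highest values, and CDK2, CDKN2C and E2F2 the lowest, near -1.2.

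The 12 E2F target genes on the second list were all called, 11 lower and 1 higher, beside 66.6% called among all tested genes, with a median log2 fold change of -1.21. Scaled by total counts alone 11 were called, 10 of them lower, beside 10259 of 15125 tested genes called, 3509 of them lower. The 3 genes named by rule for the largest decreases were CDT1, ORC1 and CDC45. CDT1, which loads the replicative helicase, fell from 33.3 ± 3.03 to 9.63 ± 0.0478 CPM (log2 fold change -1.79, SE 0.0868, adjusted p = 3.17e-16). ORC1, a subunit of the origin recognition complex, fell from 24.5 ± 1.26 to 8.93 ± 0.478 CPM, and CDC45, a subunit of the active helicase, from 18.4 ± 2.1 to 7.26 ± 0.785 CPM. POLA1, the catalytic subunit of DNA polymerase alpha, was the gene that rose, by 0.35 on the log2 scale (adjusted p = 5.06e-04). The median of these genes lay below the lowest value of any member, which was -0.44 for CDKN1B.

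The promoter of CDKN1A is a textbook example of a gene switched on through several GC boxes next to its start, where SP1 and related KLF proteins bind. The 300 bases from 250 before to 50 after the canonical start (GRCh37 chr6:36646241-36646540, plus strand) are printed with each GGGCGG in capitals, because SP1 and KLF4 of the third list bind such elements.
CDKN1A: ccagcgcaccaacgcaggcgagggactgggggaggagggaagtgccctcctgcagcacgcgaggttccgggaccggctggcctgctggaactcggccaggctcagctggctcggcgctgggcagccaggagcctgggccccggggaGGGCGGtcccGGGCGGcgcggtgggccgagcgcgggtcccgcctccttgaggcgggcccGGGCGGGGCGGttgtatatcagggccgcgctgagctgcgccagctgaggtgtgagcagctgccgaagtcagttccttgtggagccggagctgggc
The window held 4 such words, the last 2 of which overlap, counting both strands (GGGCGG and CCGCCC). Of 12477 promoters of tested genes, 74.1% held at least 1 and 20% held 4 or more. Among the other members CDKN1C held 5, CCND3 held 4, CDK4 and CDK6 held 3 each, CCND1, CDKN2A and CDKN2B held 2 each, CDKN1B held 1 and CCND2 held 0. The E2F words TTTCCCGC, TTTCGCGC, TTTGGCGC and TTTGCCGC, searched on both strands, were found in the CCND1 window alone among the 10 members, beside 5.25% of the promoters of tested genes.

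Of the 13 regulators reported here that are known to act on promoters of these genes, 12 were tested and 10 were called, 2 higher and 8 lower, beside 66.6% called among all tested genes, with a median log2 fold change of -0.32. Scaled by total counts alone 9 were called, 3 higher and 6 lower, beside 10259 of 15125 tested genes called, 6750 higher and 3509 lower. MYC, which represses CDKN1A through ZBTB17 (MIZ1) and induces CCND2 and CDK4, fell from 156 ± 10.2 to 94.5 ± 3.16 CPM (log2 fold change -0.73, SE 0.0554, adjusted p = 5.06e-12), whereas ZBTB17 was at 12.0 ± 1.07 and 11.6 ± 0.104 CPM (adjusted p = 0.656). SP1, which binds GC boxes (named after its value was seen), fell from 124 ± 4.68 to 90.8 ± 1.48 CPM (adjusted p = 2.1e-08). KLF4, an activator of CDKN1A, fell from 65.7 ± 1.69 to 33.3 ± 1.32 CPM (log2 fold change -0.98, adjusted p = 7.32e-14). FOXO3, an activator of CDKN1B, fell from 14.9 ± 1.36 to 9.45 ± 1.47 CPM (log2 fold change -0.66, adjusted p = 1.1e-05). FOXO4 and SMAD3, named after their values were seen, were the 2 called higher, with log2 fold changes of 0.49 (adjusted p = 1.85e-05) and 0.33 (adjusted p = 4.62e-06). The part of these regulators in the members' changes was not tested.

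The genes around each member were read to see whether the changes ran along the chromosome. The tested protein-coding genes next to CDKN1A, SRSF3 and PPIL1, had log2 fold changes of 0.03 and 0.07 and were not called, and the 19 tested genes within 1 Mb had a median of 0.14. Next to CDKN1B, GPR19, which overlaps it, was at -0.21 (adjusted p = 0.634) and APOLD1, 3.5 kb after it, at -0.41 (adjusted p = 0.138), close to the -0.44 of CDKN1B. The median over the 18 tested genes there was -0.01. KCNQ1, which neighbours CDKN1C in the same imprinted domain, rose by 1.92 on the log2 scale (adjusted p = 1.72e-06), while SLC22A18 on the other side was at -0.19 (adjusted p = 0.0888). Around CCND3 the median of 32 genes was -0.26, close to the value of CCND3 itself, with BYSL at -0.01 (adjusted p = 0.878) and TAF8 lower at -0.21 (adjusted p = 0.0226). TIGAR, which lies 2.4 kb after CCND2, rose by 1.45 although CCND2 was barely read, and PARP11 on its other side rose by 1.75. LTO1, whose exons share 497 bases with CCND1 on the opposite strand, rose by 0.52 while CCND1 fell, and MYEOV on the other side was at -1.10. CYP27B1 beside CDK4 rose by 0.77. FAM133B and SAMD9, on either side of CDK6, were higher by 0.36 and lower at -0.39 (adjusted p = 0.0355 and 0.00764). Within 1 Mb of CDK6, 9 of 12 tested genes were called higher and 2 lower, with a median of 0.26. Around CCND2 5 of 7 were called higher and 1 lower, with a median of 0.73. Among all tested genes 33.7% were called higher and 32.9% lower. Called higher and lower were 4 and 17 of 32 around CCND3, and 14 and 12 of 33 around CDK4. Around CDKN1A and CDKN1B they were 8 and 3 of 19, and 5 and 2 of 18. Around CCND1 and CDKN1C they were 3 and 5 of 12, and 8 and 4 of 21. Around CDKN2A and CDKN2B they were 3 and 1 of 8, and 3 and 0 of 7. For CCND1, CDK4, CDKN1C, CDKN2A and CDKN2B the medians were -0.01, 0.01, 0.15, 0.20 and 0.24.

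Markers of the line moved with the groups. All 8 A549 markers reported here were called, 2 higher and 6 lower, beside 66.6% of all tested genes. The 5 keratin and adhesion genes (KRT8, KRT18, KRT7, EPCAM and CDH1) summed to 9900 to 10600 CPM with the vector and 5140 to 5590 CPM after knockdown. KRT8, KRT18, EPCAM and CDH1 fell, whereas KRT7 rose from 1010 ± 26.6 to 1240 ± 33.2 CPM (adjusted p = 7.84e-06). The 3 enzyme genes summed to 19100 to 20900 and 13300 to 13900 CPM, with AKR1B10 and ALDH1A1 lower and AKR1C1 higher. The 3 leukocyte markers summed to 0 and to at most 0.126 CPM, with CD3E at 0 throughout. Of the endothelial markers analysed, VWF was at 0 throughout and CDH5 was read 0, 0 and 2 times and then 30, 28 and 30 times. The 4 fibroblast markers summed to 4.29 to 6.86 and 10.5 to 11.2 CPM, nearly all of it COL1A1 (5.64 ± 1.44 and 10.5 ± 0.452 CPM). The other markers COL1A2, DCN and PDGFRA were at 7 reads or fewer in every library. DCN was read 0, 0 and 0 times with the vector and 7, 4 and 2 times after knockdown. The part of these shifts in the members' changes was not tested.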

How the data were processed

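Total RNA of A549 cells was sequenced in 3 vector and 3 shMETTL3 libraries, and the authors deposited raw counts per gene, not normalized. The submitters' processing notes name cutadapt 3.0, HISAT2 2.2.1, SAMtools 1.13, HTSeq 0.13.5 and DESeq2 and the hg19 build. The paper's methods name other releases of some of these tools. The annotation and strand setting are not given in the sources used here, and if reads were counted without strand, overlapping genes cannot be told apart.

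Counts of all 6 libraries (14931426 to 19108928 each) were fitted on group with edgeR 4.0.16 in R 4.3.3: filterByExpr, TMM scaling, glmQLFit and glmQLFTest, with Benjamini-Hochberg adjustment over 15125 genes and a threshold of 0.05. The fit was tested on simulated data. Errors are SD over libraries, or SE of a log2 fold change. Ratios were compared by exact two-sided permutation tests. Positions, exons and transcript lengths come from GENCODE v44lift37 on GRCh37, matched by symbol for all 10 members, and sequences from the GRCh37 genome. A count of 3 was taken as the limit of detection, for counting error only. Library pairs within a group differed beyond sampling noise, so none was counted as 1 library.

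Alternatives were RLE, upper-quartile and total-count scaling, other low-count filters, DESeq2 1.42.0, limma-voom 3.58.1, a replicate block, each library left out, stricter thresholds and other transcript lengths. Named genes were all members, METTL3, a set list from the G1/S circuit, the 3 largest called changes of the other lists at an average log2 CPM of at least 2 without overlap of the groups plus MYC and ZBTB17, and the nearest tested protein-coding neighbours within 1 Mb. Others named were chosen after their values were seen. The members and lists were chosen with earlier results of these data known. PECAM1 was not analysed here, and 1 promoter regulator and 1 A549 marker were left out of their lists and are not reported here.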

Additional observations from a re-analysis of the deposited data

How the results depend on the processing

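METTL3 stayed called in all 15 alternative fits (log2 fold change -1.38 to -1.19), as did CDKN1A, CDKN1B and CDKN1C in their direction. An absolute log2 fold change of at least 1 left 0 members, 3 G1/S circuit genes, 0 promoter regulators, 8 E2F target genes and 2668 of all genes (1545 higher, 1123 lower), against 6, 22, 10, 12 and 10067 without it, since a fold minimum can only remove calls. The log2 difference of the CIP/KIP to cyclin D ratio was 1.0 with all annotated exons, 0.92 with the longest transcript, 0.75 without length and 0.80 with the canonical transcript, which was chosen after seeing the data. Leaving out each library in turn gave 6 to 7 members called, 19 to 22 circuit genes, 12 E2F target genes, 10 promoter regulators and 9410 to 10072 of all genes. Deviations of libraries with the same replicate number correlated at 0.159, -0.089 and 0.075, and those with different numbers at -0.2 to 0.12. Deviations from means of 3 libraries cannot settle whether the libraries were paired. With a replicate block edgeR called 10111 genes and 6 members. DESeq2 with that block called 8148 genes, 6 members, 17 circuit genes and 9 promoter regulators. DESeq2 called 9234 genes, of which 9232 were also called by edgeR. With 3 libraries a group, the permutation tests of the ratios could not fall below p = 0.1. CCND2, CDKN2A and CDKN2B had too few reads to be tested, and without a low-count filter their adjusted p-values were 0.974, 0.975 and 0.536.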

Other observations

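Cyclins and CDKs outside the lists above were taken by symbol. Of 36 such genes 32 were tested and 23 were called, 11 higher and 12 lower, beside 66.6% called, 33.7% higher and 32.9% lower among all tested genes, with a median log2 fold change of -0.09. The genes named here were chosen after their values were seen. Of the B-type cyclins, CCNB1 fell from 165 ± 4.57 to 74.1 ± 1.27 CPM (adjusted p = 5.68e-17) and CCNB2 fell by 1.39 on the log2 scale (adjusted p = 3.2e-18), whereas CCNB3 rose from 1.41 ± 0.227 to 2.61 ± 0.137 CPM (adjusted p = 0.00123). CDK1, the kinase of mitotic entry, fell from 67.3 ± 5.48 to 34.2 ± 1.91 CPM (adjusted p = 6.24e-13). CCNF, which encodes a cyclin-like ligase subunit, fell from 28.7 ± 0.302 to 11.6 ± 2.09 CPM (adjusted p = 1.35e-12). CCNG1, which encodes cyclin G1, fell from 147 ± 8.87 to 69.4 ± 0.889 CPM (log2 fold change -1.08, adjusted p = 9.71e-16) in the same libraries in which CDKN1A rose by 0.91 on the log2 scale. CCNQ, the cyclin partner of CDK10, rose from 8.07 ± 1.22 to 21.5 ± 1.47 CPM (adjusted p = 2.4e-12). CDK10 itself fell from 40.9 ± 1.5 to 31.2 ± 1.88 CPM (adjusted p = 1.14e-05).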
